A study of Mus musculus with 12 samples.

Results

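Btbd9, Glo1, Dnah8 and Glp1r are 4 protein-coding genes that lie next to each other on mouse chromosome 17, and they were chosen by symbol from the 26264 gene symbols counted in glomerulus-enriched kidney RNA. The mice came from 2 substrains of the inbred BALB/c strain, BALB/cAjcl, here Ajcl, and BALB/cByJcl, here ByJcl. The genes were picked because their levels differed between Ajcl and ByJcl in these libraries, so the substrain differences below are a description and carry no test. The question set to them was whether the size of the difference is that of a difference in gene copy number. RNA was measured and DNA was not, so the folds below are set beside 1, 1.5 and 2, the ratios that equal copies, 3 against 2 copies and 4 against 2 copies would give if RNA followed copy number.

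All mice were 8-week-old males from one vendor. Adriamycin (ADR, doxorubicin), an anthracycline that injures podocytes, was given once at 10 mg/kg by the retro-orbital route, and glomeruli were taken on Day 5, while the baseline mice were untreated. The groups were 3 Ajcl baseline, 3 ByJcl baseline, 3 Ajcl Day 5 and 3 ByJcl Day 5 libraries, and no saline-injected mice were analysed here. Ajcl Day 5 replicate 1, which the study leaves out for low glomerular purity, was kept out of the fit and is given separately below. Glomeruli were captured with magnetic beads perfused into the capillaries, so the RNA is a mixture of podocytes, endothelium, mesangium and some tubule, in which more cells of a type and more RNA per cell cannot be told apart. Baseline and Day 5 counts come in separate tables, so ADR and the table cannot be told apart. Total counts were 42198416 to 54687045 per library.

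The 4 genes have unrelated products. Glo1 encodes glyoxalase 1, which needs glutathione to detoxify methylglyoxal, a reactive by-product of glycolysis that glycates proteins. Glp1r encodes the receptor of the incretin hormone glucagon-like peptide 1, a G protein-coupled receptor that raises cyclic AMP and is known in the kidney mainly from arterial smooth muscle and juxtaglomerular cells. Btbd9 encodes a BTB-domain protein linked to restless legs and iron handling, and Dnah8 encodes a heavy chain of axonemal dynein, the motor of sperm tails and motile cilia.

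In GRCm39, with GENCODE annotation, Btbd9 (ENSMUSG00000062202.16) lay first at chr17:30434498-30795517 on the minus strand with 11 exons in its canonical transcript. Glo1 (ENSMUSG00000024026.15) followed after 8392 bases at chr17:30803910-30845845, also on the minus strand, with 6 exons. Dnah8 (ENSMUSG00000033826.12) was annotated on the plus strand at chr17:30843328-31096339 with 93 exons, and its first 2518 bases overlapped the far end of Glo1 on the opposite strand. Glp1r (ENSMUSG00000024027.10) began 24185 bases further on, at chr17:31120525-31159765 on the plus strand, with 13 exons. The whole block spanned 725268 bases. The library type was strand-specific per the labels, but the strand setting of the counting is not given in the sources used here, so reads in the overlap could have gone to Glo1 or to Dnah8. The canonical transcript of neither gene reaches that overlap, since that of Glo1 starts well inside the span of the gene and that of Dnah8 starts past the end of Glo1. The annotation the counts were made with is not given in the sources used here.

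The bases before the start sites of Glp1r and Glo1 are shown because Glp1r had the largest difference at baseline and Glo1 a difference of close to 2-fold at both times. They were read from the GRCm39 genome upstream of the canonical GENCODE start, on the strand of the gene, and stretches that fall in an exon of any gene were left out. For Glp1r all 250 bases before the start are given, chr17:31120275-31120524 on the plus strand, with both matches of a CCAAT box in capitals. For Glo1 the 125 bases from -250 to -126 are given, chr17:30831771-30831895 on the minus strand, with 1 match of a GC box in capitals. These Glo1 bases lie inside the annotated span of the gene, because other annotated transcripts of it start further upstream.
Glp1r: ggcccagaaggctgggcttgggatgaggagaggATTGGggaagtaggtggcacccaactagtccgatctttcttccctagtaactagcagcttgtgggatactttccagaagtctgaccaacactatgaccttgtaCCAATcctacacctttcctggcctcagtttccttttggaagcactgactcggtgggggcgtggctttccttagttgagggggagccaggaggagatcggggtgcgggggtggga
Glo1: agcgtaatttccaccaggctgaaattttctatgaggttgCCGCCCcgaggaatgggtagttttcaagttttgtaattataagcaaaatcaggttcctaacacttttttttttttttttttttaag
The motifs searched on both strands of the 250 bases before each start were the TATA box (TATAAA), the CCAAT box (CCAAT), the GC box (GGGCGG), the antioxidant response element (TGACNNNGC), the E box (CACGTG), the cAMP response element (TGACGTCA) and its shorter core (TGACG), which the full element contains. The CCAAT box matched at -217 to -213 and -114 to -110 in Glp1r and at -53 to -49 in Glo1, and 36.5% of 21757 promoters of the same length held it. The GC box matched at -211 to -206 in Glo1 and at -16 to -11 in Dnah8, and 36.3% of promoters held it. None of the letters searched matched in Btbd9, and no other motif of the list matched in the other genes. These are letter matches in the reference genome and not measured sites, and the substrains' own sequence was not analysed here.

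Glo1 was the most abundant of the 4 and had close to 2-fold more RNA in ByJcl. At baseline its counts were 3833, 3970 and 3682 in Ajcl and 8420, 7583 and 9116 in ByJcl. Scaled by library size with TMM to CPM, a level relative to the library's total, the levels were 88.0, 84.7 and 75.9 CPM in Ajcl and 183, 161 and 168 CPM in ByJcl. Each ByJcl library was above each Ajcl library, with means of 82.9 ± 6.27 CPM (SD, n = 3) and 170.3 ± 11.3 CPM (SD, n = 3). The ByJcl to Ajcl log2 fold change (log2FC) fitted by edgeR was 1.04 with an SE of 0.12, a fold of 2.06 with a 95% interval of 1.70 to 2.48. That interval holds 2 and lies above 1.5.

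At Day 5, in other animals, the Glo1 difference was of the same size. Levels were 75.4 and 57.5 CPM in the Ajcl libraries of the fit and 150, 122 and 130 CPM in ByJcl. The groups again did not overlap. The fold was 2.02 (log2FC 1.01, SE 0.14), with a 95% interval of 1.63 to 2.51, which again holds 2 and lies above 1.5. Ajcl Day 5 replicate 1 had 85.8 CPM, also below the ByJcl libraries, and with it in the fit the fold was 1.84.

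Btbd9, on the near side of Glo1, differed less. Its counts at baseline were 2342, 2822 and 2610 in Ajcl and 3519, 3335 and 4302 in ByJcl, which gave 53.8, 60.2 and 53.8 CPM against 76.3, 70.6 and 79.2 CPM. The groups did not overlap, and the fold was 1.35 (log2FC 0.43, SE 0.09) with a 95% interval of 1.18 to 1.54. At Day 5 the levels were 50.5 and 56.1 CPM in Ajcl and 77.0, 77.3 and 72.7 CPM in ByJcl, and the fold was 1.42 (log2FC 0.51, SE 0.10) with a 95% interval of 1.22 to 1.66. At both times the interval holds 1.5 and lies above 1 and below 2. The Btbd9 and Glo1 intervals did not overlap with each other at baseline, and at Day 5 they overlapped only between 1.63 and 1.66. With the left-out Ajcl library, at 42.5 CPM the lowest of all for Btbd9, the Day 5 fold was 1.52.

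Dnah8 was near the lower end of what was measured. It had 34, 34 and 52 counts in Ajcl and 82, 63 and 80 counts in ByJcl at baseline, or 0.781, 0.725 and 1.07 CPM against 1.78, 1.33 and 1.47 CPM. The fold was 1.77 (log2FC 0.83, SE 0.28), and its 95% interval of 1.16 to 2.72 holds both 1.5 and 2. At Day 5 Ajcl had 0.787 and 1.22 CPM and ByJcl 2.90, 2.64 and 2.33 CPM, a fold of 2.61 (log2FC 1.39, SE 0.32) with a 95% interval of 1.61 to 4.26, which holds 2 and lies above 1.5. The substrains did not overlap at either time. Dnah8 is best known from testis and motile cilia, and the multiciliated markers of these libraries were low, with Tekt1 at no more than 0.138 CPM and the sum of 4 markers at 5.24 to 6.98 CPM in Ajcl and 4.59 to 7.74 CPM in ByJcl at baseline. Dnah8 counts amounted to 0.831 to 2.16 for every 100 Glo1 counts in the same library.

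Glp1r had the widest difference at baseline, and at Day 5 its fold was below that of Dnah8. At baseline it had 54, 43 and 82 counts in Ajcl and 554, 476 and 503 counts in ByJcl, or 1.24, 0.917 and 1.69 CPM against 12.0, 10.1 and 9.26 CPM. The fold was 8.13 (log2FC 3.02, SE 0.35) with a 95% interval of 4.80 to 13.8, above each of 1, 1.5 and 2. At Day 5 it had 49 and 75 counts in Ajcl and 200, 101 and 92 counts in ByJcl, or 1.07 and 1.52 CPM against 4.43, 2.32 and 1.99 CPM. The substrains still did not overlap, but the fold was 2.24 (log2FC 1.16, SE 0.38), with a 95% interval of 1.26 to 4.004 that holds 1.5 and 2. The highest ByJcl Day 5 library weighed on this value, and without it the fold was 1.65. The left-out Ajcl library had the lowest level of all, 0.579 CPM from 27 counts, and with it the fold was 2.75.

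**Figure D1:**
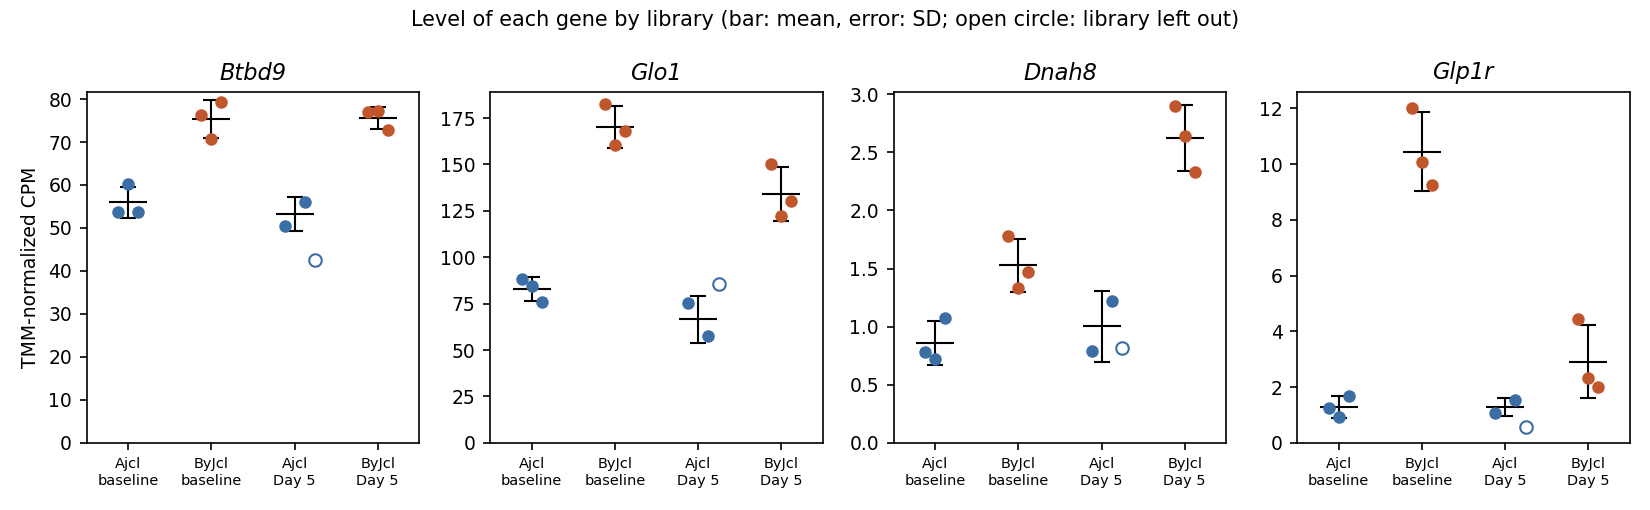
Level of each gene in TMM-normalized CPM (vertical axis, linear, from 0, scaled per gene) in each library of the 4 groups, with the mean and SD over the libraries of the fit and the left-out Ajcl Day 5 library as an open circle. ByJcl lies above Ajcl for every gene at both times, and Glp1r in ByJcl goes from 10.5 CPM at baseline to 2.91 CPM at Day 5.

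The substrains' libraries lay apart for all 4 genes at both times. Over the 17002 genes tested this was so for 14.5% at baseline and 33.4% at Day 5, and since the genes were chosen on this difference nothing is read from the count. By the same test on all genes, 0.159% were called between substrains at baseline and 0.165% at Day 5. Ranked by log2FC from the highest, Glp1r was at place 66 at baseline, Glo1 at 539, Dnah8 at 768 and Btbd9 at 1686. At Day 5 Dnah8 came first of the 4, at place 431, before Glp1r at 627, Glo1 at 815 and Btbd9 at 1974. Of the 17002 genes tested, 350 had a fitted fold between 1.8 and 2.4 at baseline and 546 at Day 5. Genes of any level and SE are in these counts, so nothing is read from them about a fold measured as closely as that of Glo1. TMM scaling centres the genes, whose median log2FC was 0.01 at baseline and 0.00 at Day 5, so all folds are relative to the bulk of genes.

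**Figure D2:**
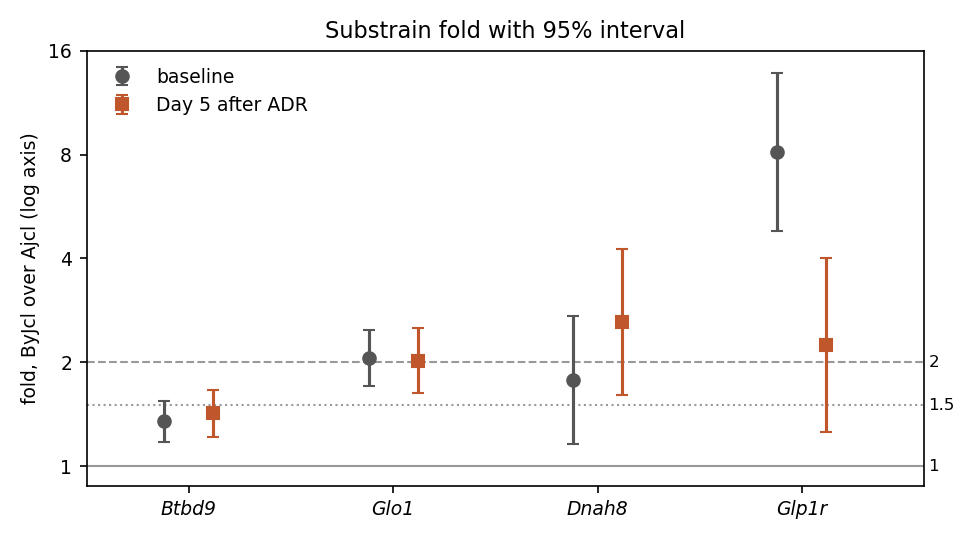
Fold of ByJcl over Ajcl for each gene (vertical axis, log scale) at baseline (circles) and at Day 5 (squares), with 95% intervals from the edgeR fit and lines at 1, 1.5 and 2. Glo1 sits on the line at 2 at both times, Btbd9 stays below it, and Glp1r moves from 8.13 to 2.24.

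Per kilobase of the canonical transcript, the order of the 4 genes was Glo1, Btbd9, Glp1r and Dnah8 in each group except Ajcl Day 5. Glo1, with a transcript of 9877 bases, had mean levels of 8.39 CPM per kb in Ajcl and 17.2 in ByJcl at baseline. Btbd9, with 7113 bases, had 7.86 and 10.6 CPM per kb, so that by this length its Ajcl baseline level was close to that of Glo1. The counts are per gene, and all annotated exons together cover 22933 bases in Btbd9 and 12815 in Glo1. This closeness, and the order of Btbd9 and Glo1 in Ajcl at Day 5, therefore depend on the length chosen. At Day 5 the 2 Ajcl libraries had a mean of 7.49 CPM per kb for Btbd9 and 6.73 for Glo1, and these neighbours in the order did not differ beyond their spread. Glp1r had 0.211 CPM per kb in Ajcl and 1.72 in ByJcl at baseline, and 0.213 and 0.479 at Day 5. Dnah8, whose transcript of 16685 bases is the longest, was lowest in all groups, at 0.0515 and 0.0916 CPM per kb at baseline and 0.0600 and 0.157 at Day 5.

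The genes on either side were compared in the same way. Within 2 Mb of the block the count tables held 90 other genes, 45 before it, 43 past it and 2 inside it, and 65 passed the filter on low counts. With p-values adjusted by Benjamini and Hochberg's method, edgeR's test called 0 of the 65 between substrains at baseline, with 5 at an unadjusted p below 0.05, and 0 at Day 5, with 8 below 0.05. Over all genes 0.159% and 0.165% were called and 8.34% and 14.0% had an unadjusted p below 0.05, so these counts are no result about the neighbours. DESeq2 called 0 at baseline and 2 at Day 5, against 535 of 17002 genes, namely Fgd2 and Abcg1, both picked out once their values were known. Of the 64 tested genes outside the block, 47 had a 95% interval wholly below a fold of 2 at baseline and 44 at Day 5, or 73.4% and 68.8%, beside 81.1% and 77.1% of all genes tested, and their median log2FC was 0.02 and 0.01. The interval held 1 for 59 of them at baseline and 56 at Day 5, or 92.2% and 87.5%, beside 91.7% and 86.0% of all genes, so nothing particular to the neighbours is read from these counts.

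Zfand3, which encodes a zinc finger protein and ends 4696 bases before Btbd9, was the nearest gene on that side. It had 172.96 to 185.3 CPM in Ajcl and 194 to 202 CPM in ByJcl at baseline, a fold of 1.10 with a 95% interval of 0.975 to 1.24 (adjusted p = 0.630). Its Day 5 fold was 1.09, with an interval of 0.951 to 1.25 (adjusted p = 0.555), so that at both times its interval holds 1 and ends below 1.5. On the other side Umodl1, 13849 bases past Glp1r, was too low for a usable fold, with 0 counts in each Ajcl baseline library and 0 to 2 in ByJcl, and with 8 and 20 counts in Ajcl and 8, 18 and 26 in ByJcl at Day 5. The next gene past it was Abcg1, a sterol exporter 116884 bases beyond Glp1r, with a fold of 1.25 at baseline (95% interval 1.02 to 1.54, adjusted p = 0.583) and 1.47 at Day 5 (1.17 to 1.85, adjusted p = 0.166). Its interval lies above 1 and below 2 and holds 1.5 at both times, as that of Btbd9 does, and it did not pass edgeR's test at either. Inside the span of Btbd9, the pseudogene Gm6402 had a fold of 0.919, with a wide interval of 0.487 to 1.73.

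**Figure D3:**
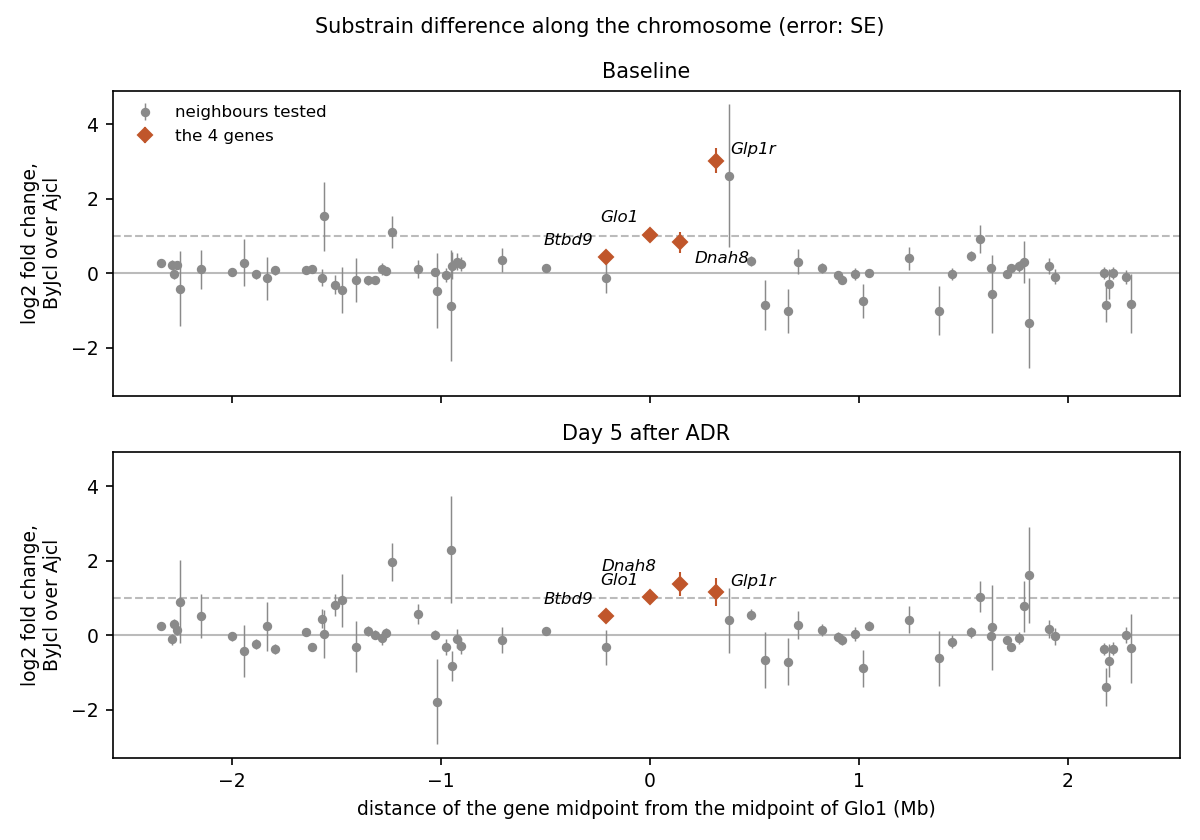
Log2 fold change of ByJcl over Ajcl with its SE (vertical axis) against the distance of each gene's midpoint from that of Glo1 in Mb (horizontal axis), at baseline and at Day 5, for the 4 genes (diamonds) and the 65 tested neighbours within 2 Mb of the block (grey), with lines at a fold of 1 and of 2. The grey point beside Glp1r at baseline is Umodl1, which rests on 2 counts in all.

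Within a library, scaling to depth drops out of the ratio of 2 genes. Glp1r had 1.41, 1.08 and 2.23 counts per 100 Glo1 counts in Ajcl at baseline and 6.58, 6.28 and 5.52 in ByJcl. At Day 5 it had 1.42 and 2.64 in Ajcl and 2.94, 1.90 and 1.53 in ByJcl, so that the substrains overlapped then. Relative to Glo1, then, the Glp1r difference seen at baseline was no longer separate at Day 5. Btbd9 had 61.1, 71.1 and 70.9 counts per 100 Glo1 counts in Ajcl at baseline and 41.8, 44.0 and 47.2 in ByJcl, without overlap. For Dnah8 the baseline ratios overlapped, at 0.887, 0.856 and 1.41 in Ajcl and 0.974, 0.831 and 0.878 in ByJcl.

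After ADR, Glp1r fell in ByJcl. The genes were chosen on the substrain difference, and the ByJcl baseline libraries that made Glp1r stand out are also the reference here, so the p-values after ADR are not independent of that choice. The mean went from 10.5 ± 1.41 CPM (SD, n = 3) to 2.91 ± 1.32 CPM (SD, n = 3), and no Day 5 library reached the lowest baseline library. The log2FC was -1.84 (SE 0.33), a fold of 0.279 with a 95% interval of 0.170 to 0.458, and edgeR's quasi-likelihood test gave an adjusted p of 0.00662. Of all genes tested, 10.6% were called in ByJcl after ADR and 4.83% were called lower, against which 1 call among 4 genes is read. In Ajcl, where Glp1r started low, the mean was 1.28 ± 0.388 CPM (SD, n = 3) at baseline and 1.30 ± 0.318 CPM (SD, n = 2) at Day 5, a log2FC of 0.02 (SE 0.38, adjusted p = 0.994). The 95% interval of that fold was 0.569 to 1.79.

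The difference between the Glp1r responses of the substrains did not pass the test over all genes. The interaction is the Day 5 substrain difference less the baseline one, on which the genes were chosen, so its p-values carry the same limit. Its log2FC was -1.86 (SE 0.49), with an unadjusted p of 0.00299 and an adjusted p of 0.620 in edgeR's quasi-likelihood test. That test called 0 of 17002 genes (0% of those tested) for the substrain by ADR interaction, with 1363 at an unadjusted p below 0.05, while DESeq2 called 22. DESeq2 gave Glp1r an adjusted p of 0.119. Over 18 alternative settings the interaction log2FC of Glp1r ran from -2.27 to -1.53, and it was called in 0 of them.

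Glo1 had lower means at Day 5 in both substrains, without passing the test. In ByJcl the mean went from 170.3 ± 11.3 to 134 ± 14.6 CPM (SD, n = 3 each), and the groups did not overlap, which held for 33.4% of all genes tested. The log2FC was -0.34 (SE 0.12) with an unadjusted p of 0.0172 and an adjusted p of 0.0991. In Ajcl it was -0.32 (SE 0.14), with an unadjusted p of 0.0420 and an adjusted p of 0.486, and 0.312% of all genes were called there. This value rests on few libraries, as it was -0.54 without Ajcl Day 5 replicate 2, -0.15 without replicate 3 and -0.20 with replicate 1, at 85.8 CPM, in the fit. The interaction log2FC was -0.02 (SE 0.18), so the ByJcl to Ajcl ratio at Day 5 was 0.983 of that at baseline, with a 95% interval of 0.742 to 1.30 (adjusted p = 0.987).

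Btbd9 did not pass the test in either substrain, with log2FC -0.07 (SE 0.10, adjusted p = 0.882) in Ajcl and 0.01 (SE 0.09, adjusted p = 0.978) in ByJcl, and a 95% interval of the ByJcl fold of 0.877 to 1.15. For its interaction the log2FC was 0.08 (SE 0.13, adjusted p = 0.907). Dnah8 had a log2FC of 0.78 (SE 0.27) in ByJcl, from 1.53 ± 0.228 to 2.63 ± 0.283 CPM (SD, n = 3 each), and the groups lay apart. Its unadjusted p there was 0.0153 and its adjusted p 0.0918. In Ajcl its log2FC was 0.22 (SE 0.31, adjusted p = 0.882) and its interaction was 0.56 (SE 0.42, adjusted p = 0.735).

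**Figure D4:**
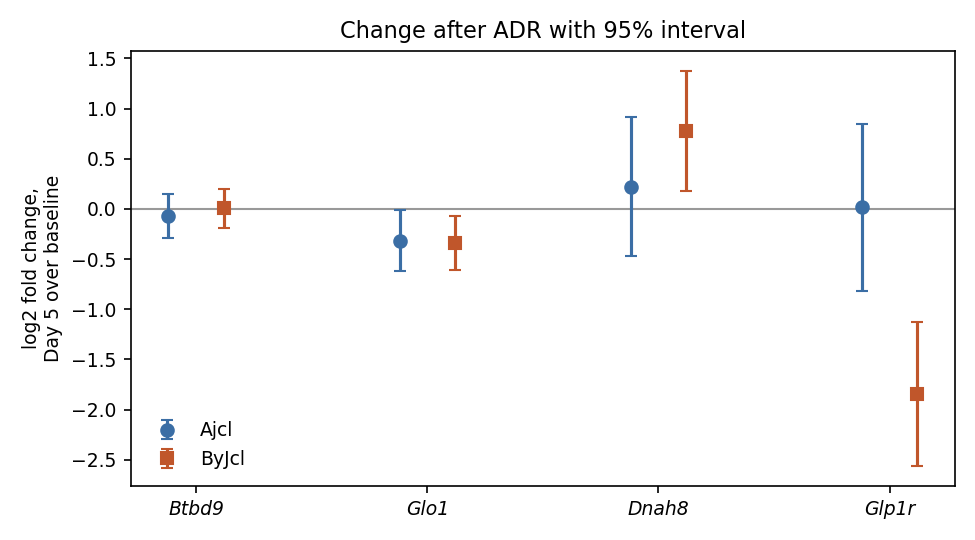
Log2 fold change of Day 5 over baseline with its 95% interval (vertical axis) for each gene in Ajcl (circles) and ByJcl (squares). Only Glp1r in ByJcl, at -1.84, passed edgeR's test over all genes. Glo1 lies at -0.32 in Ajcl and -0.34 in ByJcl.

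The same contrast could be put within libraries. In ByJcl, Glp1r went from a mean of 6.12 to 2.12 counts per 100 Glo1 counts, Dnah8 from 0.894 to 1.96 and Btbd9 from 44.3 to 56.8. The 3 ratios share the Glo1 counts as their denominator, and Glo1 was itself lower at Day 5, so the Btbd9 ratio restates the Glo1 values. The ratios are read as a description. An exact permutation test of 3 against 3 libraries cannot give a p below 0.1, the value of each ByJcl ratio (adjusted p = 0.2). In Ajcl the same test gave p of 0.4 to 0.6. The Glp1r to Glo1 ratio in Ajcl was 1.57 at baseline and 2.03 at Day 5.

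**Figure D5:**
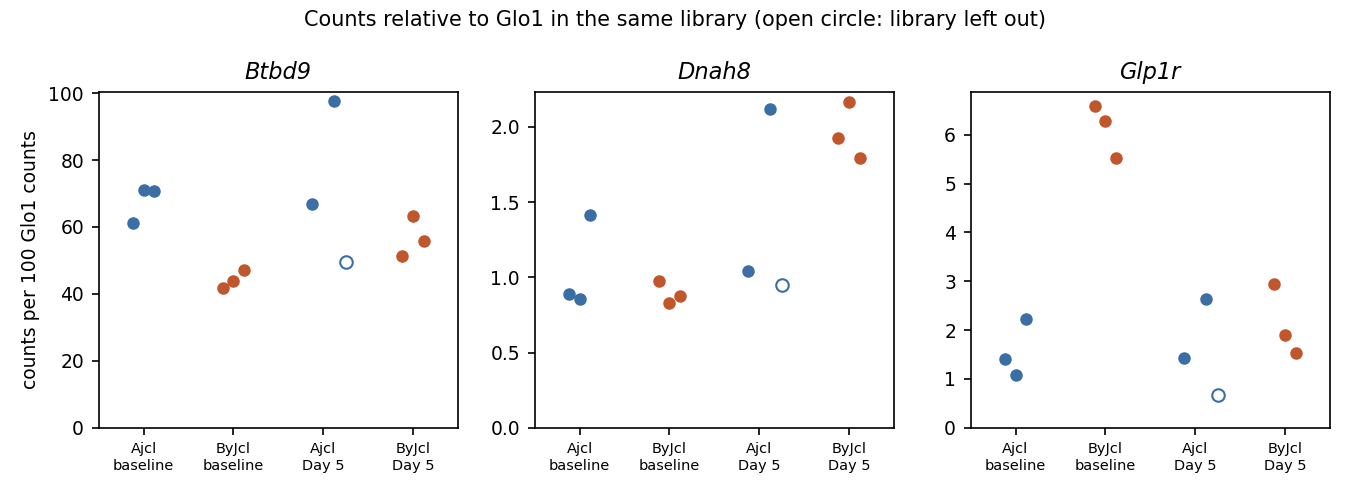
Counts of Btbd9, Dnah8 and Glp1r per 100 Glo1 counts in the same library (vertical axes, linear, from 0), by group, with the left-out Ajcl Day 5 library as an open circle. In ByJcl the ratio of Glp1r was 5.52 to 6.58 at baseline and 1.53 to 2.94 at Day 5, while that of Dnah8 was 0.831 to 0.974 and then 1.79 to 2.16.

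Markers of juxtaglomerular, smooth muscle, mesangial, endothelial and podocyte cells are given beside Glp1r. Of the juxtaglomerular pair, the renin gene Ren1 had at most 0.253 CPM and was not tested, and Akr1b7 had 9.70 to 78.2 CPM over the libraries and was not called in any comparison. Their sum was 15.5 to 30.5 CPM in Ajcl and 12.5 to 25.2 CPM in ByJcl at baseline, and 17.7 to 21.6 and 9.70 to 78.4 CPM at Day 5. The sum of 6 vascular smooth muscle markers was 739 to 861 CPM in Ajcl and 830 to 916 CPM in ByJcl at baseline, which overlap, and 804 to 856 and 1056 to 1161 CPM at Day 5, which do not. Of these 6, only Tagln was called after ADR in ByJcl, where it rose (log2FC 1.31, adjusted p = 0.00163 by edgeR). Tagln was also called higher in ByJcl than in Ajcl at Day 5 (log2FC 1.15, adjusted p = 0.0436 by edgeR). The other 5 were not called after ADR in ByJcl, with log2FC of 0.94 for Cnn1, 0.31 for Des, 0.11 for Acta2 and Myh11 and -0.07 for Smtn. The 5 mesangial markers summed to 1926 to 2259 CPM in Ajcl and 2184 to 2572 CPM in ByJcl at baseline, and to 2070 to 2399 and 2289 to 3190 CPM at Day 5. Serpine2, a secreted protease inhibitor, was the 1 of them called after ADR in ByJcl, where it rose (log2FC 0.87, adjusted p = 0.00285 by edgeR), and the median of the 5 was -0.06. The 7 glomerular endothelial markers summed to 6687 to 7476 CPM in Ajcl and 7380 to 8840 CPM in ByJcl at baseline, and to 6214 to 6771 and 4540 to 6749 CPM at Day 5. After ADR in ByJcl, Ehd3 (log2FC -0.81, adjusted p = 0.0271 by edgeR) and Flt1 (-0.54, adjusted p = 0.0472 by edgeR) were called lower, and 0 of the 7 were called higher. Without a call, Pecam1 (0.29) and Cdh5 (0.13) went up, while Kdr (-0.61), Emcn (-0.32) and Tie1 (-0.13) went down. The median of the 7 was -0.32. The 8 podocyte markers all fell in ByJcl after ADR, from a sum of 18231 to 21032 CPM to one of 7132 to 10679 CPM. In Ajcl their sum was 14364 to 20022 CPM at baseline and 10278 to 14676 CPM at Day 5, with 0 of the 8 called and a median log2FC of -0.40. The part of any of these cells in the Glp1r values was not tested.

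Sums of tubule markers are given as well, and none of these markers was called by edgeR in any comparison. The sum of 6 proximal tubule markers was 713 to 2720 CPM in Ajcl and 282 to 1327 CPM in ByJcl at baseline, and 1117 to 1532 and 230 to 1181 CPM at Day 5. The 5 distal nephron and collecting duct markers summed to 526 to 1588 CPM in Ajcl and 136 to 537 CPM in ByJcl at baseline, and to 811 to 1081 and 95.5 to 507 CPM at Day 5. Both sums were higher in Ajcl on average, and their part in the values of the 4 genes was not tested. Immune markers, low throughout, summed to 8.55 to 12.8 CPM in Ajcl and 18.6 to 26.3 CPM in ByJcl at baseline, and to 5.48 to 14.5 and 17.7 to 27.5 CPM at Day 5, without overlap at either time. Of these 5, Cd68, a macrophage gene, was the 1 called after ADR in ByJcl, where it rose (log2FC 1.17, adjusted p = 0.0128 by edgeR). The part of immune cells in the values of the 4 genes was not tested.

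Genes that work with Glo1 were taken as a list. Of 21 genes of methylglyoxal and glutathione handling, 20 were tested and 0 were called at baseline, with a median log2FC of -0.25, or at Day 5, with a median of -0.20, beside 0.01 and 0.00 over all genes. With 0.159% and 0.165% of all genes called, a count of 0 in 20 is the background. Hagh, glyoxalase 2, which completes the reaction that Glo1 starts, had 1827 to 4467 counts. After ADR in ByJcl, 2 of the 20 were called higher by edgeR and 1 lower. They were Aldh1a1, an aldehyde dehydrogenase (log2FC 3.52, adjusted p = 0.00163), Akr1b8, an aldo-keto reductase (1.22, adjusted p = 0.0157), and Fn3k, which removes sugars from glycated proteins (-1.46, adjusted p = 0.0231). In Ajcl 0 of the 20 were called after ADR.

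The incretin and glucagon receptor axis had 24 listed genes, of which 22 were tested and 0 were called between substrains at either time. A count of 0 is again the background there. Gcg, whose product is cut into glucagon-like peptide 1, had at most 7 counts in a library and Gip at most 4, and neither was tested. Dpp4, the protease that inactivates the incretins, had 29484 to 59112 counts, and Gipr, the receptor of the sister incretin, 0 to 16. After ADR in ByJcl, edgeR called the adenylyl cyclase genes Adcy9 (log2FC -0.53, adjusted p = 0.0124) and Adcy5 (-0.49, adjusted p = 0.0220) lower, and it called 0 of the 22 higher. The median log2FC of the axis in ByJcl was -0.17, against 0.01 for all genes.

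Of 25 axonemal dynein genes, 20 were tested and 0 were called between substrains at either time. After ADR in ByJcl, edgeR called 3 higher and 1 lower. Higher were the heavy chains Dnah5 (log2FC 3.16, adjusted p = 0.00915), Dnah11 (2.76, adjusted p = 0.0150) and Dnah12 (2.04, adjusted p = 0.0493), and lower was the light chain Dnal1 (-0.53, adjusted p = 0.0291). The median of the list was 0.46 there, and Dnah8 itself, at 0.78, did not pass. Counts of these heavy chains were low, at 4 to 72 for Dnah5, 4 to 55 for Dnah11 and 4 to 59 for Dnah12 over the 12 libraries. Of the 3 multiciliated markers tested in the same comparison, Foxj1, a regulator of motile cilia, was called lower (log2FC -1.41, adjusted p = 0.0486 by edgeR), while Ccdc39 (-0.53) and Rsph1 (0.75) were not called.

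For Btbd9, 27 BTB adaptors and cullin 3 genes were tested. Klhl21, an adaptor used in cell division, was the 1 called between substrains at baseline (log2FC 0.77, adjusted p = 0.0177), beside 0.159% of all genes, and 0 were called at Day 5. The Klhl21 call was lost with each table alone, with the replicate number as a block, without Ajcl baseline replicate 2 or 3 and without any 1 of the ByJcl baseline replicates. After ADR in ByJcl, Btbd19 rose (1.76, adjusted p = 0.00163), while Spop (-0.42, adjusted p = 0.0311), Klhl13 (-0.59, adjusted p = 0.0332) and Btbd7 (-0.41, adjusted p = 0.0420) fell. Of 8 iron-handling genes, 7 were tested and 0 were called in any comparison. The calls in ByJcl after ADR, 3 of 20 in the Glo1 list, 2 of 22 in the incretin axis, 4 of 20 among the dyneins and 4 of 27 here, stand beside the 10.6% of all genes called there, with 4.83% of all genes called lower, and nothing particular to a list is read from them.

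Over the 11 libraries and 16998 other genes, the genes most like Glo1 by Pearson correlation of log2 CPM were Clec11a (0.944), a secreted growth factor on chromosome 7, and Pla2g5 (0.928), a secreted phospholipase, and Tmem215 (0.926), a transmembrane protein, both on chromosome 4. Mean levels of Tmem215 were 2.79 CPM in Ajcl and 29.4 CPM in ByJcl at baseline, and 3.04 and 25.7 CPM at Day 5. Most like Glp1r were Bmyc (0.943) on chromosome 2, a gene of the Myc family, Sp6 (0.917) on chromosome 11, a zinc finger factor, and Tcaim (0.916) on chromosome 9, whose product is mitochondrial. Bmyc, like Glp1r, was high in ByJcl at baseline, with 36.5 CPM against 13.0 CPM in Ajcl, and lower at Day 5, with 21.4 against 11.2 CPM. The libraries share substrain and treatment, so these correlations restate the group pattern.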

How the data were processed

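RNA of bead-isolated glomeruli was sequenced from poly(A)-selected, strand-specific libraries. The submitters' processing notes name FastQC, Trimmomatic, STAR, featureCounts and GRCm39, and the annotation and strand setting are not given in the sources used here. The authors deposited whole-number counts per gene symbol for 12 libraries, in 1 table for baseline and 1 for Day 5, neither normalized nor pooled. Between 77.1% and 82.9% of counts from 1 to 49 were even, so both reads of a pair may have been counted.

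Counts were analysed in R 4.3.3 with edgeR 4.0.16 (filterByExpr by group, TMM, quasi-likelihood fit with 1 coefficient per group). The fit held 11 libraries, 17002 genes and 7 residual degrees of freedom, and calls are at a Benjamini-Hochberg adjusted p below 0.05 over all genes tested. Ajcl Day 5 replicate 1 was left out as in the study, and DESeq2 1.42.0 served as an alternative. Intervals are 95% intervals of the fitted log2FC. Replicates are separate libraries, and pairs within a group differed by a chi-square of 44.6 to 271.0 per degree of freedom, so none was a copy. Correlations of log2 CPM used a pseudocount of 0.5. GENCODE M39 gave positions for 23897 of 26264 symbols. Figures were drawn with matplotlib 3.10.9. Scripts were tested on simulated data.

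The 4 genes and all lists were chosen with earlier results of these data known. Genes named are the 4, neighbours called in a substrain comparison, the nearest tested gene on either side, list genes called (at most 4 per comparison, smallest adjusted p), the 3 genes most like Glo1 and Glp1r, and markers. Abcg1, Fgd2, Gm6402, Hagh, Dpp4, Gcg, Gip, Gipr and the markers named with a log2FC were added after their values were seen.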

Additional observations from a re-analysis of the deposited data

How the results depend on the processing

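The fall of Glp1r in ByJcl was called under each of the 18 alternatives, with adjusted p from 1.634e-06 in DESeq2 to 0.0377 without ByJcl Day 5 replicate 2, and no other ADR or interaction call of the 4 genes was gained or lost. The substrain folds ran over 1.97 to 2.11 (baseline) and 1.78 to 2.35 (Day 5) for Glo1, 1.30 to 1.40 and 1.36 to 1.52 for Btbd9, 1.63 to 2.03 and 2.17 to 3.34 for Dnah8, and 7.11 to 9.66 and 1.65 to 2.75 for Glp1r. In the 18 edgeR alternatives the interval of Glo1 held 2 in 18 at both times, and that of Btbd9 in 0. The Btbd9 interval at baseline held 1.5 in 17 (not without Ajcl baseline replicate 1), and that of Glp1r at Day 5 in 17 (not with all 12 libraries). At Day 5 the Glo1 interval also held 1.5 in 2 (all 12 libraries, and without Ajcl Day 5 replicate 3) and that of Dnah8 in 3, and the intervals of Dnah8 at baseline and of Glp1r at Day 5 each held 1 in 1. Low counts limit Dnah8 and Glp1r in Ajcl, and the 2 Ajcl Day 5 libraries limit each Day 5 value. The causes of the changes below were not tested.

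DESeq2 called 101 genes between substrains at baseline, 535 at Day 5, 301 after ADR in Ajcl and 22 for the interaction. Among list genes it called 2, 6 and 3 in the first 3, and 2 neighbours at Day 5. Without a filter 56 genes were called at Day 5 and 99 after ADR in Ajcl, with 1 list gene each. With a minimum of 10 counts in total, Glp1r in Ajcl after ADR was at log2FC -0.0082. With all 12 libraries it was at -0.30, Btbd9 was at 0.61 between substrains at Day 5, and 72 genes and 2 list genes were called at Day 5, and 1197 genes and 6 list genes after ADR in ByJcl, against 1800 and 13. Each table alone gave 15 genes and 0 list genes at baseline and 6 genes at Day 5.

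The labels' replicate numbers did not pair the libraries, since the correlation of same-numbered deviations ran from -0.36 to 0.51. With the replicate number as a block, 0 list genes were called at baseline and 26 genes after ADR in Ajcl, and Glp1r in ByJcl kept its call (log2FC -1.89, adjusted p = 0.00702 by edgeR).

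Leaving out each library in turn, calls between substrains ranged from 12 to 29 genes and 0 to 1 list genes at baseline (lowest without Ajcl baseline replicate 1), and from 9 to 218 genes and 0 to 2 list genes at Day 5 (without Ajcl Day 5 replicates 2 and 3). After ADR they ranged from 11 to 180 genes and 0 to 2 list genes in Ajcl (without Ajcl Day 5 replicates 3 and 2), and from 680 to 2056 genes and 4 to 14 list genes in ByJcl (lowest without ByJcl Day 5 replicate 2). The interaction had 0 to 5 genes. The log2FC between substrains at Day 5 ranged from 0.84 to 1.23 for Glo1, 1.12 to 1.74 for Dnah8 and 0.72 to 1.45 for Glp1r, and that of Dnah8 at baseline from 0.71 to 1.02. After ADR it crossed 0 for Dnah8 (-0.14 to 0.48) and Glp1r (-0.28 to 0.27) in Ajcl and for Btbd9 in ByJcl (-0.039 to 0.053), as did the interaction of Glo1 (-0.19 to 0.21). Of 352 such results 295 kept their direction and call or, for folds without a test and for counts, moved by less than the replicate SD or by at most 1.5 times.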
